A study of Mus musculus with 72 samples.

Results

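The comparison set RAW264.7 cells with a heterozygous deletion in Setd1a against wild-type RAW264.7 cells, both without any inflammatory or steroid treatment. RAW264.7 is a macrophage line from male BALB/c mice. The members were the 6 libraries that carry these genotypes and the 16 h vehicle treatment in their labels, 3 of each genotype, out of 72 libraries in 24 groups in the series. Vehicle meant 0.1% ethanol (EtOH) for 16 h and 0.1% D-PBS for 6 h, in medium with fetal bovine serum (FBS). The deleted genotype is labelled Setd1aDel/+ and is called Setd1aDel here, with wt for wild type. Whether the 3 biological replicates of a group grew as separate cultures is not in the labels, so p-values measure the spread between libraries, which may be technical. The labels also do not say whether the Setd1aDel cells are 1 clone, or which part of the gene was removed. No further line of either genotype is labelled, so the deletion and other differences between the lines cannot be told apart. The other groups used below, also of 3 libraries each, were both genotypes with 0.1% EtOH for 16 h and lipopolysaccharide (LPS, 100 ng/ml per the sample characteristics, while the treatment protocol writes ng/ul) for 6 h, or with dexamethasone (Dex, 1 uM) for 16 h and LPS for 6 h, and a separate experiment in which the same vehicle solutions were given for 6 h. Further libraries served to choose sets of responsive genes. Of these, wt RAW264.7 cells had LPS (100 ng/ml) or Dex alone (1 uM) for 6 h. Other wt RAW264.7 cells had LPS with or without interferon beta (IFNB1, 10 ng/ml). Marrow-derived macrophages, labelled Setd1bKO or wt (the controls), had vehicle.

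Setd1a is the catalytic subunit of a COMPASS complex, which methylates histone H3 at lysine 4, a mark of active promoters. Cxxc1, another subunit, binds unmethylated CpG dinucleotides. In macrophages, the factors Spi1 (PU.1) and Cebpa maintain lineage genes such as the lysozyme Lyz2 and the scavenger receptor Msr1. The purpose given for the RAW264.7 libraries is to study expression that depends on Setd1a, and the vehicle libraries address it in resting cells.

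Values were TPM, which scale each gene by transcript length and library size, for 8983 genes. The listed genes summed to 894029 to 908136 TPM in the 6 libraries, and their read depth is unknown. Changes are differences of log2(TPM + 1), Setd1aDel minus wt, with the standard error of limma, and they understate the change of genes near or under 1 TPM. Where values of both genotypes follow each other without labels, wt comes first, in the order of the replicate numbers. Across genes, libraries of the same genotype had Pearson correlations of 0.993 to 0.998 and libraries of different genotype 0.976 to 0.981. The wt library numbered 1 stood slightly apart from the other wt libraries (0.993 and 0.994, against 0.998 between those). All 10 macrophage markers were listed, at a summed 2782 to 3242 TPM in wt and 22990 to 24090 TPM in Setd1aDel, where most of it was Lyz2. The wt libraries of this experiment also stood apart from the wt vehicle libraries of the 6 h experiment in such genes: Lyz2 made 0.136 to 0.168% of listed TPM here and 0.812 to 0.848% there, and its near copy Lyz1 was at 0.222 to 0.976 TPM here and 294 to 304 TPM there. The labels name the same wt line in both experiments. No value here settles whether the wt libraries of both come from the same stock of cells, or whether one set is mislabelled, so each change at 16 h holds only relative to the wt libraries of that experiment. None of the lymphocyte (6), erythroid (4), dendritic (4), fibroblast and epithelial (6) markers was listed, and of 5 granulocyte markers only S100a8 was, at 2.22 to 4.07 and 2.19 to 2.57 TPM. Not being listed does not show absence. In the libraries with LPS with or without IFNB1, 4 of the 6 lymphocyte markers were listed. Of these, 3 were under 1 TPM in every such library, and the highest value was 19.5 TPM. Of the 5 granulocyte markers 3 were listed there, 2 of them under 1 TPM throughout, with a highest value of 11.5 TPM. In bulk libraries, fewer cells of a type and less RNA per cell cannot be told apart.

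At 16 h of vehicle, many genes differed a little and a small number differed a lot. Of 8964 genes tested, 1368 were higher in Setd1aDel cells (15.3% of the genes tested) and 2953 were lower (32.9%) at a limma adjusted p under 0.05. Most of these changes were small: 1056 of the higher genes and 2756 of the lower genes differed by less than 1.5-fold on the log2(TPM + 1) scale. At least 2-fold changes were more often upward, with 117 genes higher and 54 lower. The 3 values of a genotype did not overlap with those of the other in 5079 genes (56.7%), among them 1326 of the higher and 2823 of the lower genes. The median change of all genes was -0.08. TPM are shares of a library. With median-of-ratios scaling, which sets the middle gene of all libraries level and moved the typical change by 0.07, 1973 genes were higher and 1884 lower. The share of called genes that were higher was 31.7% without and 51.2% with that scaling. Group counts below are read against 15.3% and 32.9%.

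**Figure D1:**
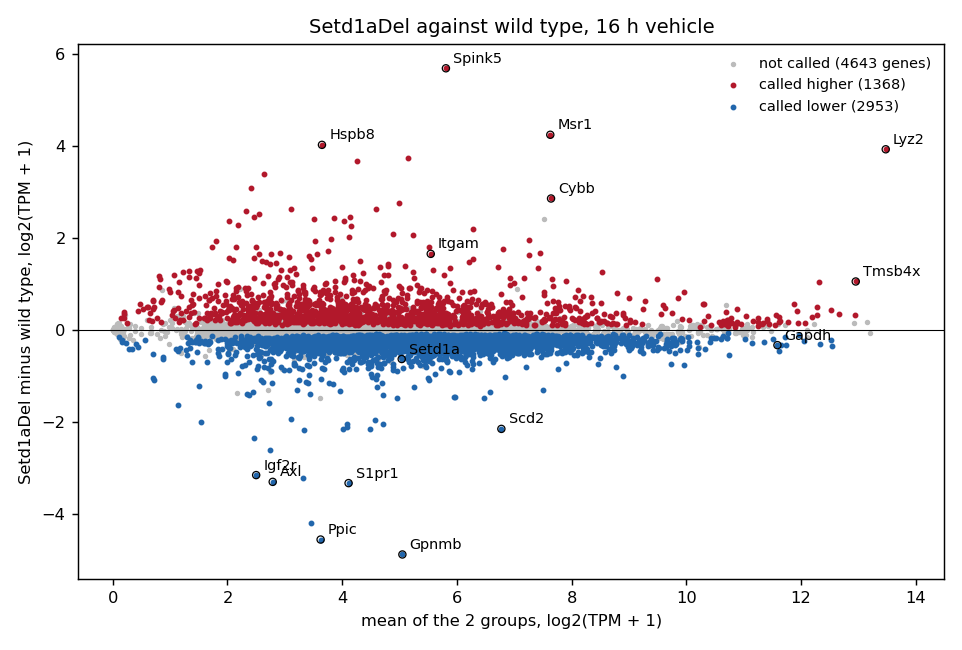
Each point is a gene, with the mean level of both genotypes on the x axis and the change between them, Setd1aDel minus wt, on the y axis, both on the log2(TPM + 1) scale (n = 3 libraries a group). Genes called higher (1368) are red, genes called lower (2953) are blue, and the named genes with the largest changes lie far outside the cloud, with Lyz2 among the most abundant genes of all.

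Setd1a itself was measured first. Its TPM were 46.8, 37.3 and 32.8 in the wt libraries and 20.6, 27.7 and 25.8 in the Setd1aDel libraries. All Setd1aDel values were lower than all wt values, and the change was -0.63 ± 0.15 (limma adjusted p = 0.00226). The gene (ENSMUSG00000042308) lies on the plus strand of chr7:127776670-127800122 in GRCm38, and since the removed part is not given, reads of the altered allele may still count. In the 6 h experiment the levels were 23.7, 22 and 26.8 TPM in wt and 22.3, 14.6 and 14.4 in Setd1aDel, a change of -0.50 ± 0.21 that missed the threshold (limma adjusted p = 0.0953). The paralogue Setd1b was at 8.27 ± 1.39 TPM in wt and 8.89 ± 1.78 in Setd1aDel (SD, n = 3), a change of 0.09 ± 0.15 that did not pass (limma adjusted p = 0.644).

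Of 20 COMPASS subunits and H3K4 methyltransferases tested, 7 were lower and 1 was higher. The lower share is near that of all genes tested (32.9%). With scaling 4 were lower and 2 higher, and the list's median turned from -0.05 to 0.02. Setd1a had the largest change of the list. Cxxc1 fell from 38.7, 38.8 and 37.4 TPM to 31.7, 33.3 and 30.8 (-0.26 ± 0.045), and the chromatin reader Psip1 fell too (-0.31 ± 0.084). Bod1l, a Setd1a-associated protein, was the higher member (0.32 ± 0.09). The methyltransferases Kmt2a, Kmt2b, Kmt2c and Kmt2d changed by 0.22, 0.02, 0.09 and 0.09, none past the threshold. Of 9 H3K4 demethylases, Kdm5b (0.26 ± 0.058) and Kdm5a (0.15 ± 0.046) were higher and 3 were lower, among them Kdm1a (-0.23 ± 0.043) and Kdm5c (-0.21 ± 0.055). Here too the lower share is near 32.9%. Kdm5a lost its call without the wt library numbered 2 (limma adjusted p = 0.0657). Within 500 kb of the start of Setd1a, 26 other genes were tested, of which 4 were higher and 6 lower, beside 15.3% and 32.9% of all genes tested. The higher genes were the integrin genes Itgam (1.66), Itgal (1.15) and Itgax (0.16) and the vitamin K reductase gene Vkorc1 (0.86), named after their values were seen. Itgax was near the floor, at a mean of 0.129 TPM in wt and 0.257 in Setd1aDel, and barely passed (limma adjusted p = 0.0463).

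The macrophage identity genes formed the group with the most members higher: 27 of 33 tested were higher and 1 was lower, with a median change of 0.61. The lower member was Sirpa (-0.54 ± 0.087), an inhibitory receptor named after its value was seen, and 3 were lower without the wt library numbered 1. The scavenger receptor Msr1 was at 18.1, 19.6 and 18.7 TPM in the wt libraries and 376, 366 and 383 in the Setd1aDel libraries, a change of 4.25 ± 0.042 (limma adjusted p = 5.54e-19). Lyz2, which degrades bacterial cell walls, was at 1217, 1482 and 1518 TPM in wt and 21026, 21013 and 22124 in Setd1aDel (3.93 ± 0.086). Its share of the listed TPM was 2.31 to 2.44% in Setd1aDel. For these genes no Setd1aDel library came near a wt library. Lyz1, a near copy of Lyz2, was at 0.222 to 0.976 TPM in wt and 5.62 to 7.1 in Setd1aDel (2.28 ± 0.16), and the sources used here do not say how reads were split between the copies.

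Increases in other macrophage genes varied in size. Csf1r, the receptor for the macrophage growth factor, rose from 645, 687 and 653 TPM to 839, 851 and 836 (0.35 ± 0.037). Adgre1 (F4/80) rose from 8.06, 9.74 and 9.39 TPM to 17.9, 18.5 and 18.6 (0.95 ± 0.069). Spi1 was only slightly higher (0.16 ± 0.041, limma adjusted p = 0.00487) and lost its call when only the 2 groups were fitted (0.056). The lysosomal glycoprotein Cd68 (-0.04 ± 0.05) and Laptm5 (0.04 ± 0.039) were the most abundant members that did not pass. Cd68 passed as lower without the wt library numbered 1 (limma adjusted p = 0.0237) and Laptm5 as higher with scaling (0.0194). The NADPH oxidase subunit Cybb, which makes superoxide in phagocytes, was at 42.4, 49.7 and 50 TPM in wt and 358, 336 and 356 in Setd1aDel (2.86 ± 0.063, limma adjusted p = 1.33e-14). Of the Ms4a family of membrane proteins, Ms4a6c was at 1.14, 2.51 and 1.79 TPM in wt and 35.9, 32.3 and 34.7 in Setd1aDel (3.68 ± 0.13), and Ms4a6b was at 0.72, 0.505 and 0.815 and 7.46, 8.48 and 8.96 TPM (2.47 ± 0.15). These are close copies too, so their split is uncertain.

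The promoters of these genes hold few CpG dinucleotides. The 24 macrophage identity genes with a RefSeq promoter (GRCm38.p6, 250 bases before to 50 after the start) had a median of 5 CpG per window, against 22 over the 7169 tested genes with a promoter. For genes with several windows, the mean over the windows was used. The 100 bases before the start of Lyz2, Cybb and Itgam, all higher in Setd1aDel, are shown 5′ to 3′ with each CpG in capitals, followed by Gpnmb, the gene with the largest fall, and Klf4, a higher gene with a CpG-rich promoter.
Lyz2, chr10:117282273-117282372 (- strand): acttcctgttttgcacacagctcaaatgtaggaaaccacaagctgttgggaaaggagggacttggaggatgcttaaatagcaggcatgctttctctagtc
Cybb, chrX:9469325-9469424 (- strand): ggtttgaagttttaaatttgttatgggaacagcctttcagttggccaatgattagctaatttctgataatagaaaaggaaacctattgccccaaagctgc
Itgam, chr7:128062540-128062639 (+ strand): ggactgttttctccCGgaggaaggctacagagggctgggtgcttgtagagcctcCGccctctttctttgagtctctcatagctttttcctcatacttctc
Gpnmb, chr6:49036418-49036517 (+ strand): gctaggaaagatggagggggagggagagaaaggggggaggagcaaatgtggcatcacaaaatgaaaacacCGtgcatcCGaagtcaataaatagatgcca
Klf4, chr4:55532476-55532575 (- strand): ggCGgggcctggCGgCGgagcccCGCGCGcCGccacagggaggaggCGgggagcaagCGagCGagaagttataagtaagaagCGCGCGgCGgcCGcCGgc
These stretches hold 0, 0, 2, 2 and 16 CpG, in the order shown. The PU.1 motif searched was GAGGAAGT on both strands, which is in 3.2% of all 32851 windows. Counted by gene, with a match in any window, it is in 3.91% of the 7169 tested genes. On the macrophage list it is in 2 of the 24 genes (8.33%). Shares of genes and of windows are unlike measures. One of the matches lies before the start of Fcgr4, an Fc gamma receptor named because of it after the values were seen. Fcgr4 was at 2.55, 3.12 and 3.33 TPM in wt and 5.16, 4.83 and 5.11 in Setd1aDel. The match is in capitals, on the opposite strand.
Fcgr4, chr1:171018862-171018925 (+ strand): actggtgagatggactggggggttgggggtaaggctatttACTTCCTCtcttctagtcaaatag

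**Figure D2:**
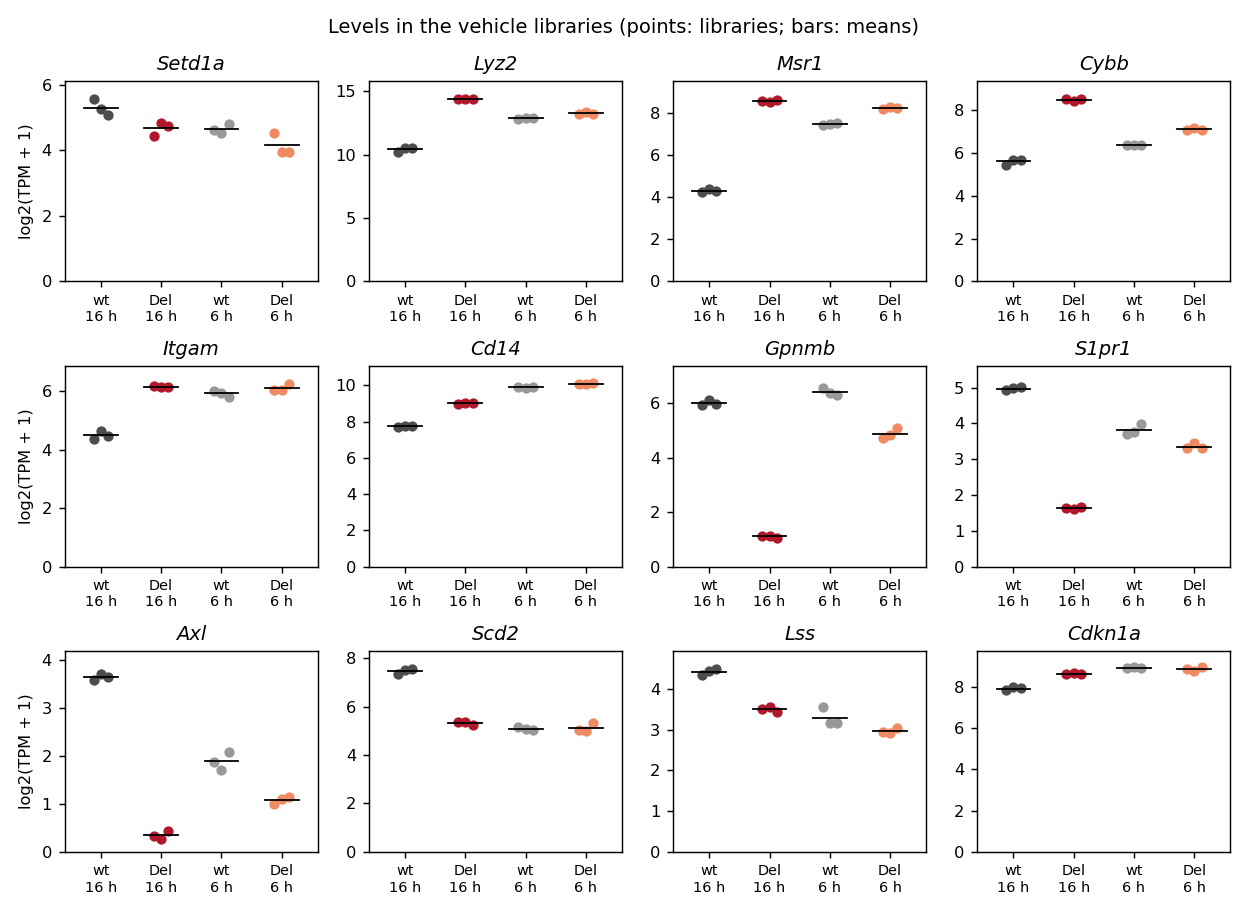
Levels of 12 genes in each vehicle library on the log2(TPM + 1) scale, by genotype and experiment (points are libraries, bars are means, n = 3). Msr1, Lyz2, Cybb and Itgam were high in the Setd1aDel libraries of the 16 h experiment and low in its wt libraries, while the 6 h wt libraries lay between or near the Setd1aDel level.

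Receptors that take up lipids, dying cells and microbes followed in part. Of 15 scavenger and efferocytosis receptors, 12 were higher and 3 lower, with a median of 0.72. In the 6 h experiment 4 were higher and 7 lower, with a median of -0.04. The difference between the experiments was called positive for 9 and negative for 3. The lower members were Axl, the bridging protein Mfge8 (-0.69 ± 0.042) and the HDL receptor Scarb1 (-0.47 ± 0.044), the last pair named after their values were seen. At 16 h Cxcl16, a membrane-bound chemokine that also binds oxidized lipoprotein, was at 26.5, 26 and 27.7 TPM in wt and 121, 129.8 and 128 in Setd1aDel (2.20 ± 0.044). At 6 h its direction was the opposite, at 92.6 to 100.5 TPM in wt and 61.9 to 69.7 in Setd1aDel. Pros1, a bridging ligand of TAM receptors, was at 5.26, 5.89 and 6.01 and 40.2, 40.1 and 41.8 TPM (2.63 ± 0.058). The TAM receptor Axl went the other way, from 11, 12 and 11.6 TPM to 0.248, 0.208 and 0.35 (-3.31 ± 0.061, limma adjusted p = 1.26e-15). Pros1 and Axl moved in opposite directions, and the genotypes overlapped in neither.

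Sensing and adhesion genes were mostly higher at 16 h. Of 20 genes of Toll-like receptor signalling, 11 were higher and 0 lower by limma (0 lower at an unadjusted p under 0.05), with a median of 0.30. The LPS co-receptor Cd14 rose from 209.7, 218 and 219 TPM to 505, 529 and 519 (1.26 ± 0.029) and Tlr2 from 55, 56.1 and 53.8 to 98.1, 101 and 102 TPM (0.86 ± 0.031). Irak3, an inhibitor of the pathway, was higher (0.92 ± 0.067), as was the RNA sensor Tlr7 (0.61 ± 0.19). The adaptor Myd88 (-0.06 ± 0.10) and Irak1 (0.10 ± 0.05) did not pass, though Irak1 passed as higher with scaling (limma adjusted p = 0.0037). Of 15 NF-kB subunits and inhibitors 9 were higher and 1, Nfkbib, was lower (-0.30 ± 0.041), with Relb (0.93 ± 0.064), Nfkbie (0.78 ± 0.082), Bcl3 (0.62 ± 0.079) and Nfkbiz (0.41 ± 0.044) changed most and Rela (0.08 ± 0.046) and Ikbkb (0.02 ± 0.047) not past the threshold. Rela passed as higher with scaling (limma adjusted p = 0.0124). The 6 h experiment did not repeat this. There 3 of the 20 Toll-like receptor genes were higher and 4 lower (median 0.02). Of the 15 NF-kB genes, 4 were lower and 0 higher at 6 h by limma (0 higher at an unadjusted p under 0.05). The difference between the experiments was called positive for 9 genes of each list. It was called negative for 0 of either (limma, 0 at an unadjusted p under 0.05).

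Of 25 integrin and cytoskeleton genes, 18 were higher and 7 lower, and with scaling 4 were lower. At 6 h, 3 were higher and 6 lower. The difference between the experiments was called positive for 14 and negative for 1. Itgam (CD11b) was at 19.5, 24 and 21 TPM in wt and 71, 68.9 and 69.4 in Setd1aDel (1.66 ± 0.062). Itgal (1.15 ± 0.045), Itgb7 (1.04 ± 0.12) and Itga5 (0.90 ± 0.04) were higher as well. Tmsb4x, the actin-binding thymosin and one of the most abundant transcripts, rose from 5092, 5215 and 5149 TPM to 10576, 10382 and 11169 (1.05 ± 0.032). Actb was slightly lower (-0.20 ± 0.05), and with scaling its call was lost.

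Inflammatory products were mixed in the resting cells. Of 25 cytokines and chemokines that LPS induces, 7 were higher and 5 lower, with a median of 0. Acod1, which makes itaconate, was at 0.342, 0.295 and 0.354 TPM in wt and 6.12, 5.83 and 5.65 in Setd1aDel (2.37 ± 0.039). Ptgs2, the inducible prostaglandin synthase, was at 3.89, 3.5 and 3.95 and 17.9, 16.6 and 17 TPM (1.93 ± 0.047), while the constitutive synthase Ptgs1 fell from 25, 26.4 and 25.1 to 4.95, 5.2 and 4.58 TPM (-2.17 ± 0.06). The paired prostaglandin synthases thus moved in opposite directions. Tnf was higher (39.3, 49.4 and 43.5 against 68.2, 68.5 and 68.6 TPM, 0.63 ± 0.064), the chemokine Ccl22 was lower (-1.05 ± 0.10), and Il1b was at 0.0335 to 0.192 TPM in wt and 0.0675 to 0.115 in Setd1aDel with no call (-0.01 ± 0.067). Ccl3 (-0.12 ± 0.063) and Osm (-0.05 ± 0.10) did not pass, although both passed as lower without the wt library numbered 1 (limma adjusted p = 0.000774 and 0.027). Antigen presentation genes were split. Of 22 MHC class I genes 7 were higher and 7 lower (4 lower with scaling), with H2-D1 (0.62 ± 0.075), H2-K1 (0.56 ± 0.091) and B2m (0.56 ± 0.055) higher, H2-T24 lower (-0.67 ± 0.11), and Calr (-0.04 ± 0.03) and Psme2 (-0.06 ± 0.037) not past the threshold. Of 6 class II and costimulation genes 3 were higher and 1 lower. H2-DMa, which helps load class II molecules, was at 4.33, 4.2 and 4.33 and 14.1, 15.8 and 15.3 TPM (1.60 ± 0.09), Cd80 was higher (0.49 ± 0.077), Cd40 lower (-0.54 ± 0.076), and the invariant chain Cd74 did not pass (0.01 ± 0.067). Of 9 secreted proteases and inhibitors 3 were higher, among them Adam8 (1.34 ± 0.085), and 2 lower, Timp1 (-2.00 ± 0.064) and Plau (-0.53 ± 0.066).

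The genes with the largest falls were low in Setd1aDel cells and clearly expressed in wt. Gpnmb, a membrane glycoprotein of lysosome-rich macrophages, was at 59.9, 68.1 and 61.2 TPM in wt and 1.19, 1.21 and 1.09 in Setd1aDel (-4.89 ± 0.064, limma adjusted p = 2.14e-17). Ppic, the cyclophilin C gene, was at 23.7, 21.6 and 22.7 TPM in wt and was listed at 0 in all 3 Setd1aDel libraries (limma adjusted p = 4.11e-18). In the 6 h experiment Ppic was at 15.6, 16.8 and 15.4 TPM in wt and again listed at 0 in all 3 Setd1aDel libraries. Ppic thus separated the lines in every vehicle library of both experiments.

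S1pr1, a receptor for sphingosine 1-phosphate that guides cell migration, fell from 29.5, 30.5 and 31.3 TPM to 2.11, 2.07 and 2.17 (-3.33 ± 0.048). Igf2r, the receptor that delivers mannose 6-phosphate-tagged enzymes to lysosomes, fell from 9.21, 9.54 and 8.77 to 0.129, 0.138 and 0.148 TPM (-3.16 ± 0.05). Blnk, an adaptor of antigen receptor signalling, fell from 33, 37.9 and 35.9 to 7.29, 7.46 and 6.83 TPM (-2.16 ± 0.063). Further genes among the 15 lowest were 3830403N18Rik (-4.20 ± 0.10), Akr1c13 (-3.21 ± 0.19), which has close copies, the homeobox gene Rhox5 (-2.62 ± 0.10), the junction protein gene Afdn (-2.35 ± 0.077), the histone methylation reader Zcwpw1 (-2.17 ± 0.066), Scd2, described below, and the metallopeptidase gene Amz1 (-2.05 ± 0.12). Of these 15 genes, 14 were also called lower in the 6 h experiment, all but Scd2, and all 15 with LPS at 16 h.

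The largest rise was that of Spink5, a serine protease inhibitor known from skin, from 1.06, 1.12 and 1.19 TPM to 111, 105 and 111 (5.70 ± 0.047, limma adjusted p = 8.76e-20). Hspb8, a small heat shock protein, was at 0.604, 0.515 and 0.236 TPM in wt and 21.3, 22.1 and 24.5 in Setd1aDel (4.03 ± 0.10). Slpi, an inhibitor of leukocyte proteases, was at 6.72, 2.76 and 3.11 and 63.6, 65.4 and 64.6 TPM (3.73 ± 0.18). These genes were near 1 TPM or below in wt, apart from Slpi, and clearly expressed in Setd1aDel.

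The vascular growth factor receptor gene Flt1 was at 0.0765, 0.0613 and 0.0853 TPM in wt and 10.5, 10.8 and 9.8 in Setd1aDel (3.40 ± 0.051). The proteoglycan gene Cspg4 was at 0.0839, 0.109 and 0.135 and 8.3, 9.18 and 8.02 TPM (3.10 ± 0.05). Others of the 15 highest were the sodium-proton exchanger Slc9b2 (2.77 ± 0.25), the copper carrier Cp (2.63 ± 0.16) and the endothelin-converting enzyme Ece1 (2.59 ± 0.081), beside Msr1, Lyz2, Cybb, Pros1, Ms4a6c and Ms4a6b above. Of the 15, 12 were also called higher in the 6 h experiment, without Ms4a6c and Slc9b2, and all 15 with LPS at 16 h.

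Every tested gene of sterol and fatty acid synthesis was lower: 24 of 24, with a median of -0.60, and 24 of 24 with scaling and with each library left out. The stearoyl-CoA desaturases changed most. Scd2 was at 163, 184 and 187 TPM in wt and 40, 40.4 and 37.1 in Setd1aDel (-2.15 ± 0.075, limma adjusted p = 3.91e-12), and Scd1 at 38.9, 41.6 and 43.3 and 8.75, 10.6 and 8.47 TPM (-2.05 ± 0.089). The pair are close copies. Lanosterol synthase, Lss, fell from 19.1, 20.7 and 21.3 TPM to 10.3, 10.7 and 9.84 (-0.92 ± 0.053). The groups did not overlap in any of the 24 genes. The list's summed level was 1123 to 1219 TPM in wt and 679 to 719 TPM in Setd1aDel. In the 6 h experiment, 13 of the 24 were lower and 1, Scd1, was higher (0.51 ± 0.10), with a median of -0.24, and Scd2 did not pass (0.04 ± 0.10). The difference between the experiments was called for 16 of the 24 genes, each more negative at 16 h.

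These genes are targets of the SREBP factors, which bind sterol regulatory elements near gene starts. The letters TCACNCCAC, searched on both strands, were in 1.24% of the 32851 windows. Counted by gene, with a match in any window, they were in 1.44% of the tested genes with a promoter. On the sterol list they were in 1 of the 17 such genes (5.88%). That gene is Hmgcs1, which makes HMG-CoA and was named after its values were seen. Hmgcs1 fell from 24.9, 26.7 and 26.5 TPM to 18, 17.4 and 17.1 (-0.55 ± 0.057). Part of its promoter is shown with the match in capitals, then the 100 bases before the start of Lss with each CpG in capitals, as an example of the CpG-rich promoters of the list (median 26 CpG per window).
Hmgcs1, chr13:119690174-119690262 (+ strand): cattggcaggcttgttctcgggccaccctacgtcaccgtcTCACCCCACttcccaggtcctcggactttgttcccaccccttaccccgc
Lss, chr10:76531505-76531604 (+ strand): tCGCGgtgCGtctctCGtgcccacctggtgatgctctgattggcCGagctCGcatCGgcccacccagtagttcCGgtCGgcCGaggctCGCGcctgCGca
The match ends 129 bases before the start of Hmgcs1, and the stretch of Lss holds 13 CpG. Neither motif contains the other.

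Genes that take up, store and export lipid were mixed. Of 17 genes of cholesterol efflux and lipid handling, 7 were higher and 3 lower. Plin2, which coats lipid droplets, rose from 16.1, 16.5 and 14.6 TPM to 31.6, 35.4 and 33 (1.04 ± 0.047). The fatty acid transporter Cd36 (0.62 ± 0.041) and the carnitine palmitoyltransferase Cpt1a (0.60 ± 0.059) were higher. At 6 h the direction of Cd36 was the opposite, at 92.55 to 108.6 TPM in wt and 46.09 to 51.9 in Setd1aDel. The exporter Abcg1 fell from 31.1, 31.2 and 32.1 to 14.7, 13 and 15.6 TPM (-1.07 ± 0.065). Fabp5 (0.03 ± 0.039) and the oxysterol receptor Nr1h2 (0.04 ± 0.16) did not pass. Of 33 genes of lysosomal enzymes and the proton pump, 15 were higher and 7 lower (21 and 5 with scaling), with Ctsc (0.92 ± 0.062) and Npc2 (0.50 ± 0.055) up and the pump subunit Atp6v0a1 down (-0.85 ± 0.13). Of 11 osteoclast genes 3 were higher, among them Fos (5.5, 5.42 and 4.59 against 27.6, 29.6 and 28.5 TPM, 2.26 ± 0.074), and 3 lower, Atp6v0d2 (-1.21 ± 0.10), Car2 (-0.76 ± 0.044) and Dcstamp (-0.45 ± 0.10).

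The proteasome was lower by small, even amounts. All 26 proteasome subunits were lower, with a median of -0.31, a range of -0.59 to -0.19 and no overlap between the genotypes in any, and all 26 stayed lower with scaling. Psma3 fell from 430.2, 345 and 360.0 TPM to 257, 252 and 239 (-0.59 ± 0.071) and Psmd2 from 194, 170.4 and 162 to 132, 128 and 130.5 TPM (-0.42 ± 0.049). Psmc3 (-0.38 ± 0.027) and Psmd11 (-0.37 ± 0.039) fell by like amounts. At 6 h, 6 of the 26 were lower (median -0.09), and the difference between the experiments was called for 17.

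Of 34 nuclear-encoded oxidative phosphorylation subunits, 22 were lower and 0 higher by limma (0 higher at an unadjusted p under 0.05, and 15 and 0 with scaling), led by Ndufs8 (-0.53 ± 0.036) and Cox7a2 (-0.52 ± 0.033), with Cox4i1 (0.03 ± 0.046) and Cox6c (0.10 ± 0.13) not past the threshold. Of 23 glycolysis and hypoxia genes, 17 were lower and 2 higher. Gapdh fell from 3484, 3379.9 and 3425 TPM to 2714, 2726 and 2738 (-0.33 ± 0.028) and Tpi1 fell too (-0.44 ± 0.053), while the stress-induced Ndrg1 was higher (0.78 ± 0.086). Of 26 oxidative stress genes, 19 were lower and 3 higher, the lower ones including malic enzyme Me1 (-1.16 ± 0.048), the glutathione enzyme Gclc (-0.70 ± 0.045) and catalase, Cat (-0.65 ± 0.059). Tkt was lower too (1522, 877 and 831 against 591, 658 and 608 TPM), but the wt library numbered 1 stood far above the others, and without it the limma adjusted p was 0.168. The call was also lost without any 1 of the Setd1aDel libraries (0.0552 to 0.0817). The regulator Nfe2l2 did not pass (-0.06 ± 0.038). Of 13 heat shock proteins listed as cytosolic, 9 were lower (6 with scaling) and 2 were higher, Hspb8 and Hspa1b (0.41 ± 0.11). The lower members include Hspd1 (-0.51 ± 0.05), which is a mitochondrial chaperonin although the list holds it. Of 28 genes of the unfolded protein and integrated stress response, 13 were lower and 6 higher (9 and 6 with scaling). The serine synthesis enzyme Phgdh (-0.53 ± 0.033) and the mTOR inhibitor Ddit4 (-0.87 ± 0.082) fell, Nupr1 (0.57 ± 0.079) and Atf3 (0.51 ± 0.12) rose, and the chaperone Hspa5 (-0.27 ± 0.12) and Xbp1 (-0.01 ± 0.057) did not pass, although Hspa5 passed as lower when only the 2 groups were fitted and without the Setd1aDel library numbered 2 (limma adjusted p = 0.0476 and 0.0491).

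Genes of cell division were lower as well. Of 45 DNA replication genes, 32 were lower and 0 higher by limma (1 higher at an unadjusted p under 0.05, and 29 and 1 with scaling), with a median of -0.23. Pold2, a polymerase subunit, fell from 59.2, 60.5 and 59.8 TPM to 41.3, 41.4 and 40.4 (-0.53 ± 0.038), and the nucleotide enzymes Dut (-0.46 ± 0.044) and Tk1 (-0.42 ± 0.068) fell. Chaf1b was called (-0.49 ± 0.18) but lost the call without the wt library numbered 1 or 2 (limma adjusted p = 0.132 and 0.0563), without the Setd1aDel library numbered 1 or 2 (0.0866 and 0.0722) and with scaling. Pcna (-0.09 ± 0.051) and Dnmt1 (0.10 ± 0.04) did not pass, and Dnmt1 passed as higher with scaling. Of 37 mitosis genes, 28 were lower and 2 higher (20 and 2 with scaling). Ccnb2, a mitotic cyclin, fell from 116, 124 and 121 TPM to 78.3, 74.8 and 76.2 (-0.65 ± 0.042), and the kinases Plk1 (-0.54 ± 0.041), Aurka (-0.46 ± 0.038) and Bub1b (-0.46 ± 0.043) fell, while Cdca8 (-0.13 ± 0.073) and the proliferation marker Mki67 (-0.13 ± 0.086) did not pass. Of 26 cyclins, E2F factors and CDK inhibitors 11 were lower and 3 higher (8 and 4 with scaling). The CDK inhibitor Cdkn1a, a p53 target, rose from 229, 253 and 246 TPM to 393, 415 and 395 (0.72 ± 0.036, limma adjusted p = 3.02e-10), Cdkn1b fell (-0.43 ± 0.073), E2f8 fell (-0.43 ± 0.048), and Myc, low in both, was at 0.3, 0.394 and 0.501 and 1.26, 1.54 and 0.861 TPM (0.66 ± 0.082). Of 24 DNA damage and p53 genes 7 were higher, among them Fas (1.28 ± 0.17) and Phlda3 (0.97 ± 0.16), and 7 lower, led by Xrcc5 (-1.17 ± 0.049), with Trp53 itself at -0.03 ± 0.046 and no call.

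Mitochondrially encoded mRNAs ran opposite to the nuclear subunits of the same complexes. Of 13, 9 were higher and 0 lower by limma (0 lower at an unadjusted p under 0.05), with a median of 0.45. Leaving out the wt library numbered 3 made 1 lower. Mt-Co1, a cytochrome oxidase subunit, was at 3415, 3092 and 2661 TPM in wt and 4619, 4739 and 4152 in Setd1aDel (0.56 ± 0.10), and mt-Nd5 at 404, 380.1 and 381 and 645, 663 and 589.7 TPM (0.70 ± 0.11). Together they made 2.36 to 2.70% of listed TPM in wt and 3.19 to 3.58% in Setd1aDel. In the 6 h experiment the shares were 2.34 to 2.80% and 2.45 to 3.00%, and 0 of 13 was called by limma in either direction (1 higher and 0 lower at an unadjusted p under 0.05). The difference between the experiments was called for 0 of 13 by limma (2 positive and 1 negative at an unadjusted p under 0.05). Different effects in the experiments are thus not shown for these genes. The mitochondrial share is also a usual sign of RNA or cell quality, and its part in the other results was not tested. Of 33 cytosolic ribosomal protein genes, 13 were higher and 2 lower, with changes between -0.17 and 0.30, but 23 were higher with scaling and 7 without the wt library numbered 1. Rps23 (0.30 ± 0.051) and Rps4x (0.22 ± 0.063) changed most, and Rps9 (0 ± 0.11) and Rplp1 (0.13 ± 0.07) did not pass. Rplp1 passed as higher with scaling (limma adjusted p = 0.0451).

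Interferon-stimulated genes, which in resting cells report low-level type I interferon, were split. Of 74 tested, 17 were higher and 16 lower, with a median of -0.06. The lower count was 27 without the wt library numbered 1 and 10 without the wt library numbered 2, and 11 with scaling. Members of the Schlafen family rose, Slfn4 from 9.37, 10.3 and 10.4 TPM to 24, 24.8 and 24.3 (1.20 ± 0.061) and Slfn2 from 7.97, 9.47 and 10.4 to 19.7, 22.7 and 22.4 TPM (1.14 ± 0.072), as did Oasl1 (0.84 ± 0.092). Isg15, a ubiquitin-like antiviral protein, fell from 3.2, 4.3 and 4.92 TPM to 1.54, 2.23 and 1.02 (-1.0 ± 0.14), and Ifit1, under 1 TPM in all 6 libraries, was lower (-0.36 ± 0.082). The regulator Irf7 (-0.20 ± 0.12) did not pass, and it passed as lower without the wt library numbered 1 (limma adjusted p = 0.0195). Ifi27l2a (-0.01 ± 0.20) and Bst2 (-0.12 ± 0.051) did not pass, the latter passing as lower without that library (0.0204). Of 19 genes of interferon induction and signalling 8 were higher and 4 lower, with the receptors Ifnar1 (0.54 ± 0.056) and Ifngr2 (0.52 ± 0.036) and the factor Irf8 (0.50 ± 0.045) higher, the DNA sensor Cgas lower (-0.65 ± 0.056), and Irf5 (-0.02 ± 0.08) not past the threshold.

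The glucocorticoid receptor Nr3c1 did not pass (22.6, 23.4 and 15.5 TPM in wt, 18.2, 19.7 and 10.8 in Setd1aDel, -0.34 ± 0.22). Of 19 glucocorticoid-induced genes tested without any Dex, 9 were higher and 5 lower. Klf4, also a monocyte factor, was at 2.46, 2.68 and 2.6 TPM in wt and 11.2, 10.4 and 9.85 in Setd1aDel (1.68 ± 0.077). Tsc22d3 (GILZ) fell from 10.1, 11.9 and 14.7 to 6.82, 6.98 and 6.5 TPM (-0.75 ± 0.13), and Fkbp5 did not pass (0.01 ± 0.041). Of 17 receptor and chaperone genes 7 were lower and 2 higher, with the co-chaperones Fkbp4 (-0.47 ± 0.028) and Stip1 (-0.33 ± 0.044) and the chaperone Hsp90ab1 (-0.29 ± 0.057) lower. The median of that list was 0 without and 0.07 with scaling. Of 13 immediate early factors 5 were higher, led by Fos and then Jun (0.53 ± 0.049), and 3 were lower (1 with scaling, and 1 without the wt library numbered 2), led by Ier3 (-1.10 ± 0.10).

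**Figure D3:**
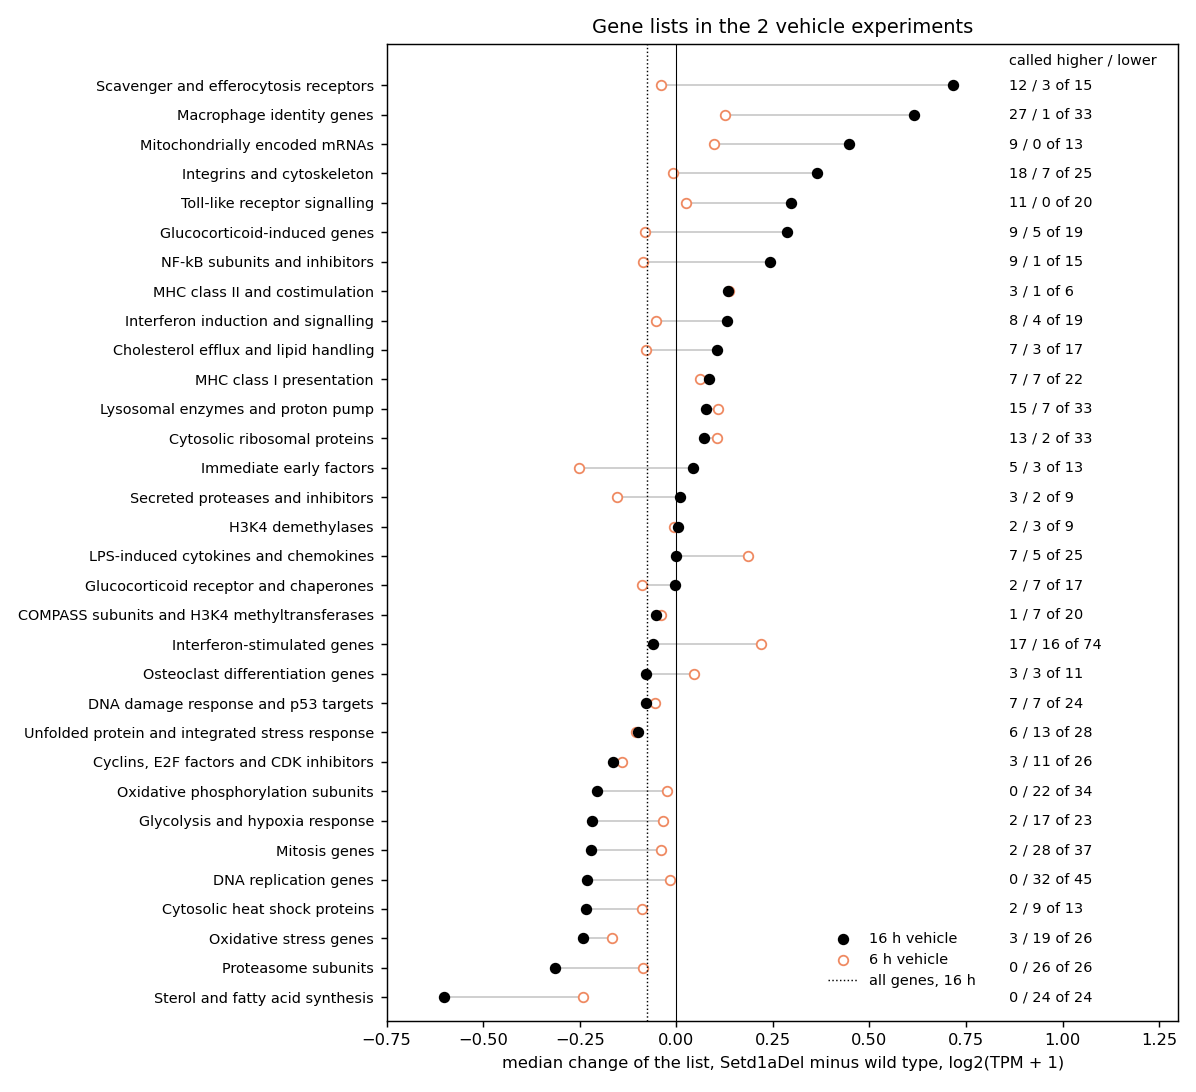
Median change of each list with 5 or more tested genes, Setd1aDel minus wt on the log2(TPM + 1) scale, in the 16 h (filled) and 6 h (open) vehicle experiments, with the 16 h counts of members called higher and lower at the right. The dotted line is the median of all genes at 16 h (-0.08), and the lists lie from -0.60 for sterol and fatty acid synthesis to 0.72 for scavenger and efferocytosis receptors.

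The same contrast was measured in other libraries of the 6 h experiment, where vehicle lasted 6 h. There 591 of 8981 genes were higher (6.58%) and 1400 lower (15.6%), or 975 and 717 with scaling. Of the genes called at 16 h, 315 were called higher in both experiments, which is 23% of the 1368 higher genes at 16 h and 53.6% of those at 6 h. Another 769 were called lower in both, 26% and 55%. A further 134 genes higher at 16 h were lower at 6 h, and 85 lower at 16 h were higher at 6 h. Across the 8964 genes tested in both, which are not independent, the changes had a Pearson correlation of 0.364 and a Spearman correlation of 0.31. The difference between the effects was called positive for 1039 of 8981 genes (11.6%) and negative for 1047 (11.7%). Of the 117 genes at least 2-fold higher at 16 h, 61 were also called higher at 6 h, 14 were called lower and 42 were not called, and the difference was called in the direction of the rise for 105.

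Some genes separated the lines strongly in both experiments. Hspb8 was at 0, 0.151 and 0.16 TPM in wt and 27.1, 24.7 and 29.5 in Setd1aDel at 6 h (4.67 ± 0.09), and Zcwpw1 at 20.5, 24.7 and 21.6 and 2.02, 1.9 and 2.13 TPM (-2.94 ± 0.11). For both, the difference between the experiments still passed. Others differed mainly at 16 h, and for these the wt level differed between the experiments. Msr1 was at 173, 179 and 179 TPM in wt and 287, 307 and 294 in Setd1aDel at 6 h (0.74 ± 0.042), so that the wt level was lower at 16 h while the Setd1aDel levels were closer to each other. Lyz2 was at 7358, 7532 and 7708 and 9543, 10342 and 9655 TPM at 6 h (0.39 ± 0.04), against 1217 to 1518 and 21013 to 22124 TPM at 16 h. Ms4a6c was at 29.1, 34 and 35.9 and 28.2, 32.4 and 29.4 TPM at 6 h (-0.13 ± 0.09, no call). Lyz1 turned around: it was at 304, 296 and 294 TPM in wt and 2.97, 4.15 and 2.74 in Setd1aDel at 6 h (-6.14 ± 0.17), against 0.222, 0.976 and 0.535 and 7.1, 5.62 and 6.89 TPM at 16 h.

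The lower wt level at 16 h held for most of the strongly higher genes. In 110 of the 117 genes the wt mean was lower at 16 h than at 6 h, with a median difference of -1.28 on the log2(TPM + 1) scale. The Setd1aDel mean was higher at 16 h in 66 and lower in 51, with a median difference of 0.06. Over all tested genes the median difference was 0.09 in each genotype. Because these genes were chosen partly for a low wt value at 16 h, this is a description and no test. For 24 sterol and fatty acid genes, the wt mean was higher at 16 h in 23 (median 0.64) and the Setd1aDel mean in 22 (median 0.29). Scd2 was at 34.9, 32.5 and 31.8 TPM in wt and 32.3, 30.7 and 39.3 in Setd1aDel at 6 h, close to the Setd1aDel level at 16 h (37.1 to 40.4 TPM). The experiments differ in the time of vehicle and were separate, and the labels give no batch or date, so time and experiment cannot be told apart.

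The experiments differed upward for macrophage identity genes and downward for interferon genes. At 6 h, 13 of 33 macrophage identity genes were higher and 7 lower (median 0.13), and the difference between the experiments was called positive for 21 and negative for 0 (limma, 2 negative at an unadjusted p under 0.05). Of 74 interferon-stimulated genes, 34 were higher and 0 lower at 6 h (limma, 0 lower at an unadjusted p under 0.05, median 0.22), and the difference was called negative for 32 and positive for 5. Irf7 was at 1.92, 1.23 and 1.89 TPM in wt and 13.8, 15.2 and 15 in Setd1aDel at 6 h (2.55 ± 0.091), against 3.73, 4.54 and 6.38 and 3.6, 4.45 and 4.1 TPM at 16 h. DNA replication genes were lower in 4 of 45 cases at 6 h, with the difference called negative for 19.

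**Figure D4:**
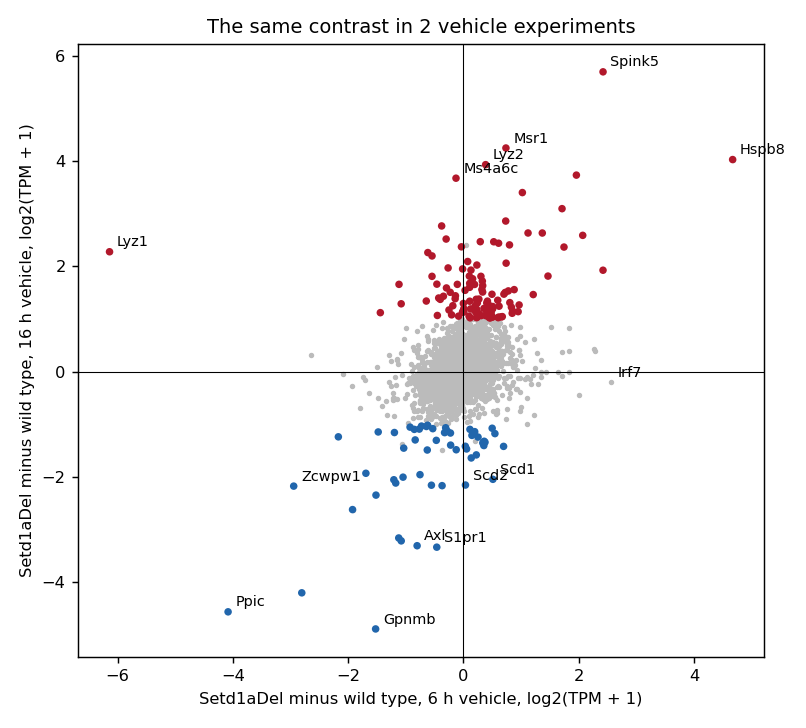
Change of each gene, Setd1aDel minus wt on the log2(TPM + 1) scale, in the 6 h vehicle experiment (x axis) and the 16 h vehicle experiment (y axis); genes called and at least 2-fold changed at 16 h are red (117 higher) or blue (54 lower). Many genes with large changes at 16 h lie near 0 on the x axis, while Hspb8, Ppic and Zcwpw1 lie far from 0 on both.

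With 6 h of LPS in the 16 h experiment, 1568 of 8964 genes were higher in Setd1aDel (17.5%) and 3798 lower (42.4%), and with Dex and LPS 1521 were higher (17.0%) and 4266 lower (47.6%). With scaling, which moved the typical change by 0.10 and 0.15, the counts were 2390 and 2676 with LPS and 2722 and 2702 with Dex and LPS. Those groups share no library with the vehicle groups. The effect in LPS differed from that in vehicle, which shares the vehicle libraries, upward in 1176 genes (13.1%) and downward in 1820 (20.3%). Spink5 changed by 5.70 ± 0.047 in vehicle, 5.30 ± 0.047 with LPS and 4.62 ± 0.047 with Dex and LPS. Gpnmb changed by -4.89 ± 0.064, -3.41 ± 0.064 and -4.11 ± 0.064, and Ppic was lower in all. Lyz2 changed by 3.93 ± 0.086, 2.06 ± 0.086 and 2.27 ± 0.086, and Msr1 by 4.25 ± 0.042, 1.70 ± 0.042 and 1.77 ± 0.042. Cxcl16 changed by 2.20 ± 0.044 in vehicle and 0.03 ± 0.044 with LPS (no call), and the difference passed (-2.17 ± 0.062, limma adjusted p = 7.74e-13). The leading genes thus separated the lines with each treatment of the 16 h experiment, whereas Cxcl16 did so in vehicle and was not called with LPS. In the 6 h vehicle libraries the direction of Cxcl16 was the opposite (92.6 to 100.5 TPM in wt, 61.9 to 69.7 in Setd1aDel). Macrophage identity genes had medians of 0.61, 0.28 and 0.27 in vehicle, LPS and Dex with LPS. Sterol and fatty acid genes had -0.60, -0.51 and -0.59, with 22 of 24 lower in each of the treated comparisons. Interferon-stimulated genes had -0.06, -1.44 and -2.37, with 73 of 74 lower with LPS.

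Genes that respond to stimuli in libraries of other groups were followed in the resting cells at 16 h. Of 258 genes that LPS raised at least 4-fold in wt cells of the 6 h experiment, 96 were higher (37.2%) and 49 lower (19%) in Setd1aDel vehicle libraries, with a median of 0.03. Of 138 genes that LPS lowered, 23 were higher and 62 lower (median -0.18). Of 89 genes that Dex raised at least 2-fold in wt, 43 were higher (48.3%) and 15 lower (median 0.27), and of 79 that Dex lowered, 26 were higher and 21 lower (median -0.01). Of 264 genes that interferon beta (IFNB1) added to LPS raised at least 1.5-fold, 99 were higher (37.5%) and 42 lower (median 0.04), and of 161 that it lowered, 30 were higher and 59 lower (median -0.10). Of 114 genes at least 2-fold lower in marrow-derived macrophages labelled Setd1bKO than in controls, both with vehicle, 42 were higher and 42 lower (median 0.02), and of 10 genes higher there, 1 was higher and 2 lower. These values stand beside 15.3% and 32.9% and a median of -0.08 for all genes.

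Calls were also counted by the CpG content of the promoter (the mean over windows for genes with several), as a description with no test. Of 825 tested genes with under 10 CpG in the 300-base window, 33.3% were higher and 20.0% lower, with a median change of 0.04. Of 1643 genes with 30 or more CpG, 9.8% were higher and 36.9% lower, with a median of -0.10. The classes between gave 15.4% and 31.4% (10 to under 20 CpG, 2122 genes) and 11.7% and 36.5% (20 to under 30, 2579 genes). With scaling the shares were 39.6% and 13.3% in the class with fewest CpG and 16.2% and 23.2% in that with most. At least 2-fold rises made 5.21% of the first class and 0.426% of the last, and at least 2-fold falls 1.94% and 0.243%. In the 6 h experiment 17.6% and 3.77% of these classes were higher and 12.1% and 16.9% lower. The classes differ in level: the median TPM in wt was 17.0 with fewest and 27.7 with most CpG, and the part of level in these shares was not tested.

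**Figure D5:**
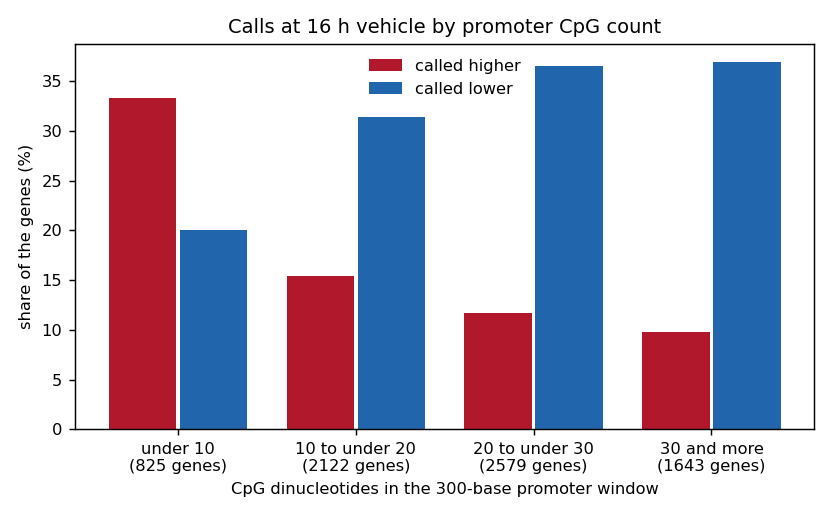
Share of tested genes called higher (red) and lower (blue) in Setd1aDel at 16 h of vehicle, by the number of CpG dinucleotides in the RefSeq promoter window (mean of a gene's windows). The higher share goes from 33.3% in the class with fewest CpG to 9.8% in the class with most, and the lower share from 20.0% to 36.9%.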

How the data were processed

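The authors deposited a single TPM table for the RAW264.7 libraries of the 6 h and 16 h experiments. Per the submitters' processing notes, Salmon 0.10.2, R 3.6.0, DESeq2 and the build GRCm38.p6 (mm10) were used, with no role stated for each. A table for the IFNB1 libraries names no unit in its header and its values were taken as TPM as deposited. The RAW264.7 table also holds a signal that the authors computed, the mean normalized count over the 6 h libraries, and every one of its 8983 genes has at least 50 there, so genes expressed only at 16 h may be missing. Names matched GENCODE vM21 for 8967 genes. Columns matched to no sample numbered 0. The stranded kit is in the labels, strand use in counting is not.

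Genes that reached 1 TPM in 3 or more libraries were tested on log2(TPM + 1) with limma 3.58.1 (R 4.3.3, data.table version 1.17.8), with 1 mean for each of the 6 groups of the 16 h experiment (18 libraries), eBayes with trend, two-sided, and Benjamini-Hochberg adjusted p under 0.05 over all genes. All adjusted p-values here come from limma. The 6 h comparison used 8 groups (24 libraries), and the difference between experiments both together. Alternatives were a pseudocount of 0.1, no filter, a filter of 5 TPM, median-of-ratios scaling, the replicate number as a block, only the compared groups, and each library left out. The fit was tested on simulated data.

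Named genes were the 15 highest and 15 lowest called genes with at least 5 TPM and no overlap, up to 4 called and the 2 most expressed uncalled members of each list, the 5 largest differences of each sign between experiments and treatments, the 5 most expressed called genes each way and 22 fixed genes. Some genes this rule names are not reported here. The comparison, its 37 gene lists and the sets were chosen with earlier results of these data known. Genes with close copies (Lyz, Ms4a6, Akr1c, Scd, Slfn, Ifit, H2) are uncertain. Promoter sequences and coordinates are RefSeq GRCm38.p6, matched for 7169 of 8964 tested genes. A gene with several windows took their mean CpG count, and it held a motif if any window did. Figures used matplotlib 3.10.9 and pandas 2.3.3.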

Additional observations from a re-analysis of the deposited data

Results flagged for a closer look

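The Setd1aDel effect differed between the 16 h and the 6 h vehicle experiments, tested as a difference of effects by limma, in 1039 genes upward and 1047 downward. The most positive differences of log2(TPM + 1) changes were those of Lyz1 (8.417, with a change of 2.28 at 16 h and -6.14 at 6 h), Ms4a6c (3.804), Lyz2 (3.547), Msr1 (3.511) and Spink5 (3.274). The most negative were those of Gpnmb (-3.365), S1pr1 (-2.873), Irf7 (-2.752), Scd1 (-2.557) and Axl (-2.504). For each of these genes the difference passed over all genes, and time and experiment cannot be told apart.

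The effect with LPS differed from that in vehicle, by limma's interaction term, in 1176 genes upward and 1820 downward. The interaction was positive for Serpinb2 (5.345), Timp1 (4.256), S100a8 (4.222), Csf2 (4.158) and Il13ra2 (3.631). Timp1, an inhibitor of matrix proteases, was lower in vehicle (-2.00) and higher with LPS (2.25). Serpinb2, a protease inhibitor of activated macrophages, was at 0.01 in vehicle (no call) and 5.35 with LPS, and was listed at 0 in the 3 wt vehicle libraries. The interaction was negative for Ifit2 (-4.002), Cxcl10 (-3.995), Mx1 (-3.205), Plau (-3.2) and Fos (-3.174). Fos was higher in vehicle (2.26) and lower with LPS (-0.91). Ifit2, Cxcl10 and Mx1 are interferon-stimulated genes, with differences of 0.67, 0.60 and 0.14 (the last not called) in vehicle and -3.33, -3.40 and -3.07 with LPS. The call of Ifit2 in vehicle was lost without any 1 of the wt libraries or the Setd1aDel libraries numbered 1 and 3 (limma adjusted p = 0.0535 to 0.196).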

How the results depend on the processing

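Among the 231 named genes, no called change reversed its direction under the alternatives run. The direction of other single genes was not followed. Median-of-ratios scaling gave 1884 genes lower at 16 h of vehicle, against 2953 without it, and 975 higher and 717 lower at 6 h, 2390 higher with LPS, and 2722 higher and 2702 lower with Dex and LPS. Among the sets chosen in other libraries, it gave medians of 0.0697 (raised by LPS), -0.1 (lowered by LPS), 0.304 and 0.0534 (raised and lowered by Dex), 0.101 and -0.0422 (raised and lowered by IFNB1), and 0.126 and 0.0715 (higher and lower in Setd1bKO). A lower fold minimum gave 0.0844 (raised by LPS), 0.141 and -0.0822 (Dex), -0.123 (lowered by IFNB1), and -0.0647 and 0.04 (Setd1bKO). A pseudocount of 0.1 gave 0.0879 (raised by LPS), 0.315 (raised by Dex), and 0.082 and -0.124 (IFNB1). The set raised by Dex had 0.229 with no filter and 0.225 with a filter of 5 TPM, which gave 0.0553 and -0.124 for the IFNB1 sets. With each library left out, medians were 0.201 to 0.251 (raised by Dex), -0.0651 to 0.01 (lowered by Dex), 0.0388 to 0.0654 (raised by IFNB1), and -0.0109 to 0.101 and 0.00463 to 0.0544 (higher and lower in Setd1bKO). The medians of the sets lowered by Dex and higher in Setd1bKO crossed 0 among these settings. The cause was not tested. Leaving out each library gave 1189 to 1357 genes higher and 2479 to 2902 lower at 16 h.

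Same-numbered wt and Setd1aDel libraries did not deviate together (correlations -0.0263, -0.0143 and 0.095), so the replicate number was taken as a name only. With it as a block, 1325 genes were higher and 2841 lower. Read depth is unknown, so no counting error can be given for any value.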

Other observations

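Gm10131 was listed at 0 in the wt library numbered 1 and at 198 to 257 TPM in the other 5 libraries, and it was not called. Tyrobp, an adaptor of activating myeloid receptors, was at 113, 70.0 and 94.9 TPM in wt and 133, 199.6 and 180.0 in Setd1aDel, did not pass, and was chosen after its values were seen.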
